A study of Homo sapiens with 6 samples.

Results

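The genes examined here make, move, sense and break down prostaglandin E2 (PGE2), and were chosen by symbol as 9 of the 19470 rows of the deposited count table. They are the cyclooxygenases PTGS1 and PTGS2, the terminal PGE synthases PTGES, PTGES2 and PTGES3, the receptors PTGER2 and PTGER4, the uptake carrier SLCO2A1 and the degrading enzyme HPGD. All 9 were found. RNA was sequenced from HCCC9810, an established human cholangiocarcinoma (CCA) cell line labelled as wild type, after 24 h with 20 μM isolinderalactone (ILL), a plant sesquiterpene lactone, or with the vehicle DMSO alone, in 3 libraries per group. The labels do not say whether the libraries of a group came from separate cultures, so p-values measure the spread between these libraries, which may be technical.

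Cyclooxygenases turn arachidonic acid, freed from membrane phospholipid, into the intermediate PGH2, and PGE synthases turn PGH2 into PGE2. PGE2 leaves the cell, acts on its EP receptors, of which EP2 and EP4 raise cAMP, and is taken back up by the carrier SLCO2A1 to be oxidized by HPGD. PTGS1 is the constitutive cyclooxygenase in most tissues and PTGS2 (COX-2) the inducible form, and COX-2 with PGE2 is a well known growth and inflammation signal in biliary cancers.

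Treatment with ILL raised PTGS2 mRNA 8.78-fold and lowered SLCO2A1 mRNA to 0.336 of the control level, and these were the members called differentially expressed genes (DEGs, adjusted p under 0.05 in edgeR's quasi-likelihood fit over all genes and a fold change above 2 or under 0.5). Smaller differences passed the test without reaching that fold, with PTGES and PTGER4 higher and PTGES2 and PTGES3 lower. PTGS1 and HPGD did not pass, and PTGER2 had too few reads to be tested. Of the 9 members, 8 passed the filter on low counts. DEGs were 2 of these 8, where 23.9% of all 13066 tested genes were DEGs. An adjusted p under 0.05 alone was reached by 6 of the 8, where the share over all tested genes was 73.1%, and libraries of the groups did not overlap in 6 of the 8, where the share was 75.4%. The members as a list thus moved about as often as other genes, and their median log2 fold change of -0.18 lay beside a median of -0.0012 over all tested genes.

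Total counts lay between 34282764 and 37758569 per library, and values below are CPM, reads scaled to a fixed TMM-adjusted library size, unless FPKM, a level per length, is named. Among biliary epithelial markers, the keratins KRT7, KRT8, KRT18 and KRT19, EPCAM, SOX9 and CDH1 were all present, while CFTR had no reads. The biliary list summed to between 9050 and 9292 CPM in controls and between 9531 and 10120 CPM with ILL. Sums for hepatocyte, fibroblast and endothelial markers were at most 51.8 CPM in any library. The sum of 10 immune markers went from between 38.3 and 42.8 CPM to between 113 and 119 CPM, nearly all of it CD68, a lysosomal protein, while the leukocyte antigen PTPRC was at most 0.257 CPM in any library. In such bulk RNA, fewer cells with a transcript and less of it per cell cannot be told apart.

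Upstream sequence is shown for the member with the largest increase, PTGS2, for PTGES, which encodes the synthase coupled to it, and for PTGES3, which fell. Each line is the 250 bases before the RefSeq start on GRCh38.p14, minus strand, written 5′ to 3′, and capitals mark letters of the motifs searched on both strands. The PTGS2 window (chr1:186680424-186680673) also reaches into PACERR, a noncoding RNA transcribed the other way, the PTGES window is chr9:129753043-129753292 and the PTGES3 window is chr12:56688285-56688534.
PTGS2: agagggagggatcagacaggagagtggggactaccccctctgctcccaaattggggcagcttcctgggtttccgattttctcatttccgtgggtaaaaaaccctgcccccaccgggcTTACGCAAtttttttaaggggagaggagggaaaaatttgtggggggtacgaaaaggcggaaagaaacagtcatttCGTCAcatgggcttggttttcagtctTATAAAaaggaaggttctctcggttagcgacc
PTGES: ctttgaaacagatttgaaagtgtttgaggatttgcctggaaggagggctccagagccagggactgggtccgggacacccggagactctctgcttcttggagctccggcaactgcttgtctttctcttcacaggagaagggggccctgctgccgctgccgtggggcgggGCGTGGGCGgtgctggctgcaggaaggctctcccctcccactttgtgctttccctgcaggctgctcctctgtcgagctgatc
PTGES3: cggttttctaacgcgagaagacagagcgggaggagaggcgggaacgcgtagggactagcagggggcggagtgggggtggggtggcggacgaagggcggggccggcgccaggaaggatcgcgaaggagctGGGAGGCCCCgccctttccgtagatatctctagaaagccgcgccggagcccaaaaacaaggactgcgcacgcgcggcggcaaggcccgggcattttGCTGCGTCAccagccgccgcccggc

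In the PTGS2 window the capitals are a C/EBP motif (TTNCNNAA, from -133 to -126), a CRE core motif read on the opposite strand (TGACG, from -58 to -54) and a TATA box (TATAAA, from -32 to -27). These motifs stood in 33.2%, 21.2% and 10.7% of all 35116 windows of the same length. The PTGES window held none of these and 1 EGR1 motif (GCGNGGGCG, from -82 to -74, in 8.41% of all windows), a motif added after the sequence was seen. The PTGES3 window held an NF-κB motif (GGGRNNYYCC, 9.96% of all windows), and a CRE core motif that lies inside an NRF2 motif (TGACNNNGC, 10.9%). In the PTGS2 and PTGES windows no match to these NF-κB or NRF2 letters was found. Searches for the AP-1 motif (TGANTCA, 6.57%), the ATF4 composite motif (TGATGNAA, 3.14%) and the E-box (CACGTG, 6.34%) found none in these windows. A match is a run of letters and not a measured binding site, and a site spelled with other letters is missed by such a search.

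Among the cyclooxygenases, PTGS2 (chromosome 1 of GRCh38, 186671791 to 186680427) had 125, 138 and 175 reads in control replicates 1 to 3 and 1284, 1206 and 1195 reads in ILL replicates 1 to 3. Every ILL library stood far above every control library, at 34.2 to 36.7 CPM against 3.22 to 4.95 CPM. Relative to their level, though not in CPM, the ILL libraries lay closer together than the controls. In CPM, PTGS2 rose from 4.03 ± 0.869 to 35.3 ± 1.27 (SD, n = 3), a log2 fold change of 3.13 (standard error 0.12, 95% interval 2.89 to 3.38, adjusted p = 2.0e-17 from edgeR). By that value PTGS2 ranked 135 from the top of the 13066 tested genes. PTGS1 (chromosome 9, 122370530 to 122395703) had 220, 186 and 180 reads in controls and 194, 153 and 164 with ILL, and the groups overlapped. The PTGS1 log2 fold change was -0.13 (95% interval -0.49 to 0.23, adjusted p = 0.517 from edgeR), so that the interval leaves room for a change of up to a fold of 0.712 or 1.17.

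Per length, the isoforms stood level in controls and apart with ILL. PTGS2 was at 0.734, 0.893 and 1.12 FPKM in controls, and PTGS1 at 0.935, 0.870 and 0.832 FPKM. With ILL, PTGS2 was at 7.99, 7.54 and 7.40 FPKM and PTGS1 at 0.873, 0.692 and 0.734 FPKM. PTGS2 thus made up 50.6% ± 6.67 of the summed cyclooxygenase FPKM in controls and 90.9% ± 0.726 with ILL (SD, n = 3).

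**Figure D1:**
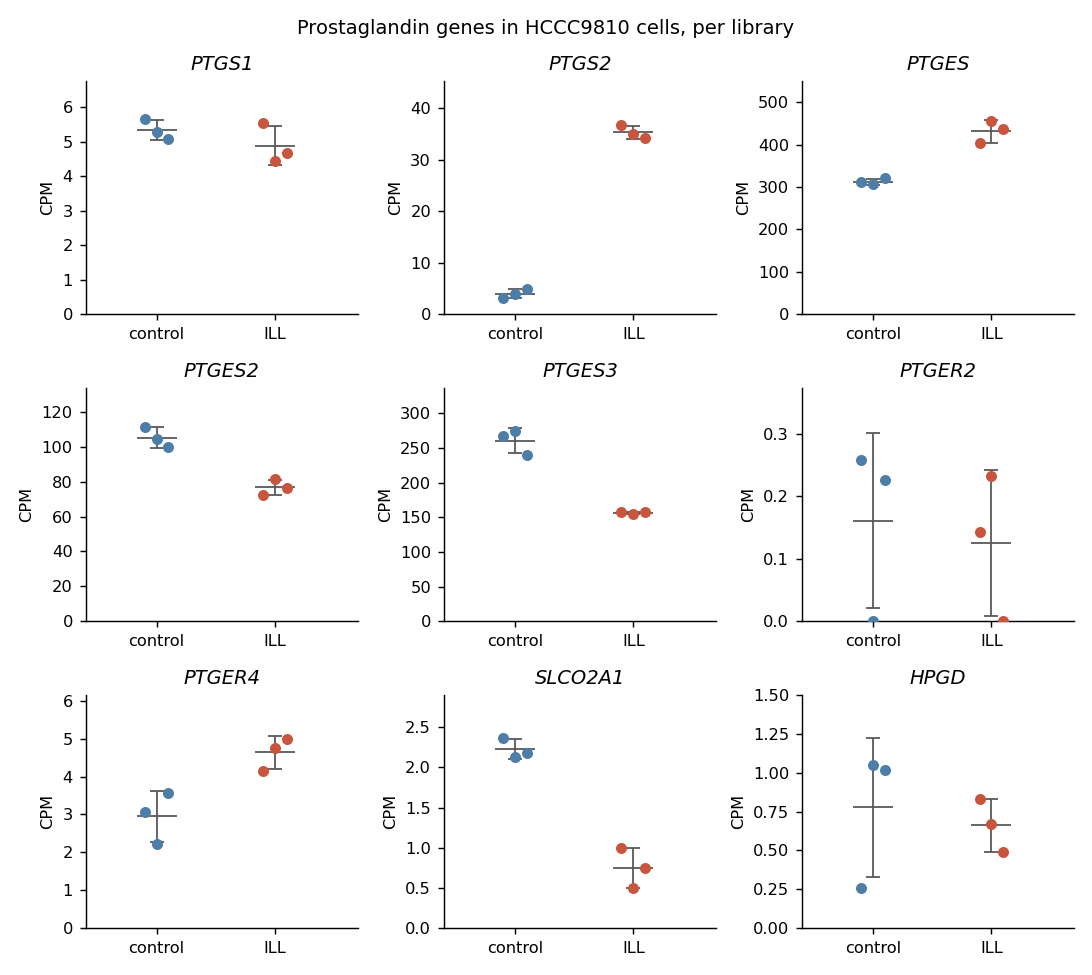
Level of each of the 9 genes in CPM (vertical axes from 0, own scale per gene) in 3 control (blue) and 3 ILL (red) libraries of HCCC9810 cells, with horizontal lines for group means and bars for SD. PTGS2, PTGES and PTGER4 lay higher in all ILL libraries and PTGES2, PTGES3 and SLCO2A1 lower, while PTGS1, PTGER2 and HPGD overlapped.

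Among the PGE synthases, only PTGES was higher with ILL. PTGES encodes microsomal PGE synthase-1, the inducible membrane enzyme that works with COX-2. It lies on chromosome 9 from 129738331 to 129753047 and was the most abundant member, at 12078, 10770 and 11323 reads in controls and 14100, 15684 and 15245 reads with ILL. The lowest ILL library, at 403 CPM, lay above the highest control library, at 320 CPM. The PTGES log2 fold change was 0.46 (standard error 0.05, 95% interval 0.36 to 0.57, adjusted p = 1.9e-08 from edgeR), an increase of 38.0%.

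PTGES2, a second membrane PGE synthase (chromosome 9, 128120693 to 128128462), went the other way, at 4330, 3682 and 3531 reads in controls and 2541, 2799 and 2673 reads with ILL. Its level fell by 27.2%, from 105 ± 5.85 to 76.8 ± 4.38 CPM (SD, n = 3, log2 fold change -0.46, standard error 0.06, adjusted p = 3.2e-07 from edgeR). PTGES3 encodes p23, described both as a cytosolic PGE synthase and as a co-chaperone of HSP90 (chromosome 12, 56663341 to 56688408). It had 10407, 9653 and 8477 reads in controls and 5527, 5340 and 5501 reads with ILL, and the ILL libraries lay close together. The PTGES3 level fell by 39.9%, with a log2 fold change of -0.73 (standard error 0.06, 95% interval -0.85 to -0.62, adjusted p = 1.3e-11 from edgeR). GENCODE release 29 names 5 processed pseudogenes of PTGES3, none of which has a row in the count table, and reads shared with them could be counted on PTGES3.

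In FPKM, PTGES made up 58.0% ± 1.99 of the sum of the PGE synthases in controls and 74.4% ± 0.786 with ILL (SD, n = 3). The PTGES3 share went from 24.4% ± 1.49 to 13.7% ± 0.828, and that of PTGES2 from 17.6% ± 0.726 to 11.96% ± 0.139. No library of the ILL group overlapped a control library in any of these shares. PTGES transcripts per length exceeded those of PTGS2 between 167- and 249-fold in controls and between 28.3- and 33.5-fold with ILL.

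**Figure D2:**
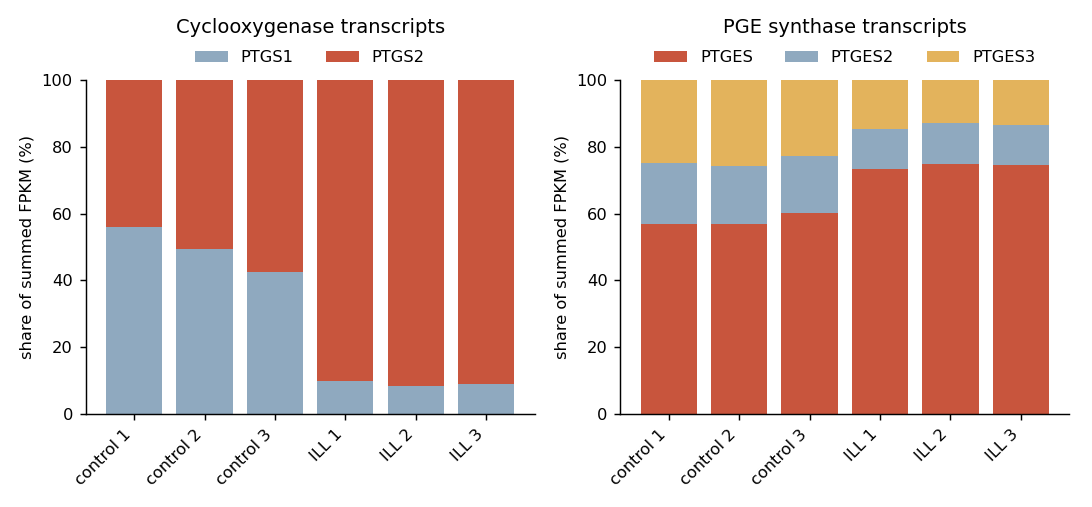
Share of each gene in the summed FPKM (percent, vertical axes from 0) of the cyclooxygenases (left) and of the PGE synthases (right), with 1 bar per library. PTGS2 took 90.1% to 91.6% of the cyclooxygenase sum with ILL and 44.0% to 57.3% in controls, and PTGES took 73.5% to 75.0% of the synthase sum with ILL and 56.8% to 60.3% in controls.

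The p23 protein works with HSP90 chaperones, and 17 genes of HSP90 and its co-chaperones were examined beside PTGES3. All 17 were tested. At an adjusted p under 0.05, 13 were lower and 2 higher with ILL, where 36.9% and 36.2% of all tested genes were. DEGs were 4 of the 17, all lower, where 11.4% of all tested genes were DEGs lower and 12.5% DEGs higher. HSP90AA1, which encodes the inducible cytosolic HSP90, was at 2828 ± 55.8 CPM in controls and 1630 ± 26.2 CPM with ILL (SD, n = 3). Its log2 fold change of -0.80 was close to that of PTGES3. The immunophilin co-chaperones FKBP4 and FKBP5 fell by 1.35 and 1.96 on the log2 scale. The other DEGs, named here and for the lists below after their values were seen, were the mitochondrial HSP90 gene TRAP1 and NUDC, which fell by 1.32 and 1.07 on the log2 scale. Over the list the median was -0.59.

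Among the receptors, PTGER4 carried nearly all the reads. PTGER4 encodes EP4 (chromosome 5, 40679498 to 40693735) and had 119, 78 and 126 reads in controls and 145, 164 and 175 reads with ILL. The groups did not overlap, though the highest control library, at 3.56 CPM, stood near the lowest ILL library, at 4.14 CPM. The PTGER4 log2 fold change was 0.65 (standard error 0.22, 95% interval 0.19 to 1.11, adjusted p = 0.011 from edgeR). Control replicate 2 was the lowest library, and without it the value was 0.48 and no longer passed (adjusted p = 0.0606 from edgeR). TTC33 overlaps PTGER4 on the other strand, and the sources used here do not say whether reads were counted by strand. TTC33 had a log2 fold change of 0.03 (95% interval -0.23 to 0.30). GENCODE release 29 also names 2 pseudogenes of PTGER4 without a row in the count table, and reads shared with them could be counted on PTGER4.

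PTGER2, which encodes EP2 (chromosome 14, 52314305 to 52328606), had 10, 0 and 8 reads in controls and 5, 8 and 0 with ILL. Each group held a library without reads, which allows a level of up to 0.0875 CPM in control replicate 2 and 0.0837 CPM in ILL replicate 3 (3 reads, counting error only). Without the filter on low counts, the PTGER2 log2 fold change of -0.38 had a standard error of 1.09. Any difference in PTGER2 short of a large one was therefore not detectable at this depth.

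The uptake carrier showed the largest decrease of the tested members. SLCO2A1 (chromosome 3, 133928145 to 134052184) had 92, 75 and 77 reads in controls and 35, 17 and 26 reads with ILL. The highest ILL library, at 1.0 CPM, lay below the lowest control library, at 2.13 CPM. The SLCO2A1 log2 fold change was -1.57 (standard error 0.36, 95% interval -2.32 to -0.83, adjusted p = 0.000415 from edgeR), and it stayed between -1.84 and -1.35 when each library was left out in turn.

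HPGD, the 15-hydroxyprostaglandin dehydrogenase that inactivates PGE2 (chromosome 4, 174490177 to 174523154), was near the lower end of what the libraries could measure. It had 10, 37 and 36 reads in controls and 29, 23 and 17 with ILL. All ILL libraries lay between control replicate 1 and the other control libraries, so the groups overlapped. The HPGD log2 fold change of -0.22 had a standard error of 0.51 and a 95% interval from -1.28 to 0.83 (adjusted p = 0.709 from edgeR), and its sign changed with single control libraries, at -0.65 without control replicate 1, 0.06 without control replicate 2 and 0.02 without control replicate 3. The ratio of PTGS2 to HPGD in FPKM was between 3.58 and 12.0 in controls and between 42.5 and 67.5 with ILL.

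**Figure D3:**
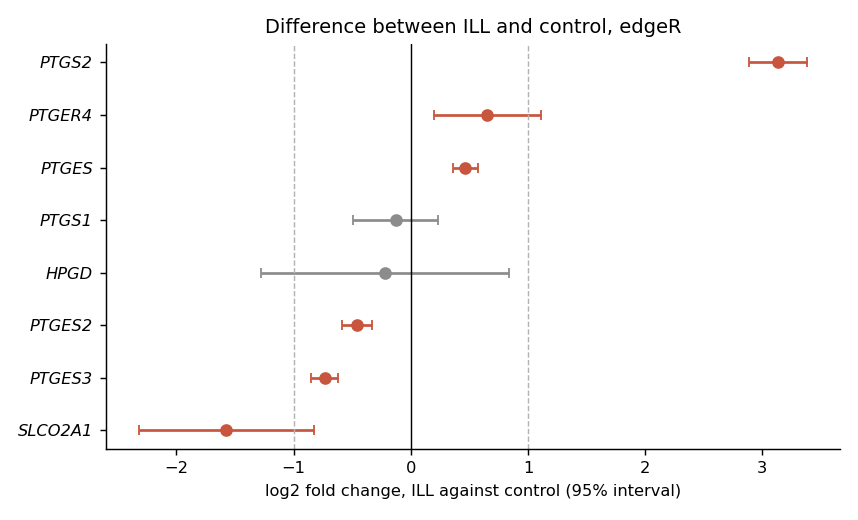
Log2 fold change of ILL against control from edgeR (horizontal axis) for the 8 tested members, with bars for the 95% interval, red for an adjusted p under 0.05 and grey otherwise, and dashed lines at a fold change of 2 in either direction. PTGS2 at 3.13 and SLCO2A1 at -1.57 lie beyond the dashed lines, and the HPGD interval from -1.28 to 0.83 is the widest.

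Ordered by control FPKM, PTGES at 183 ± 3.46, PTGES3 at 77.0 ± 5.78 and PTGES2 at 55.7 ± 3.35 FPKM led the members (SD, n = 3), and their ranges did not overlap. PTGER4 at 1.33 ± 0.302 and PTGS2 at 0.915 ± 0.193 FPKM followed, with ranges that overlapped each other, and the range of PTGS1 at 0.879 ± 0.0519 FPKM lay inside that of PTGS2. SLCO2A1 at 0.490 ± 0.0291 FPKM stood below these, and the lowest, HPGD at 0.183 ± 0.106 and PTGER2 at 0.0672 ± 0.0586 FPKM, overlapped. With ILL, PTGS2 at 7.64 ± 0.308 FPKM stood above PTGER4 at 1.99 ± 0.183 FPKM, and SLCO2A1 at 0.157 ± 0.0540 FPKM overlapped HPGD at 0.149 ± 0.0391 FPKM.

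Upstream of the cyclooxygenases, 13 of 18 genes listed for arachidonic acid release, mostly lipases, were tested. Of these, 2 were DEGs higher and none was a DEG lower. Over all tested genes, 12.5% were DEGs higher and 11.4% DEGs lower. The cytosolic phospholipases PLA2G4C and PLA2G4F rose 3.40 ± 0.23 and 1.43 ± 0.30 on the log2 scale (± standard error), from 0.812 ± 0.199 to 8.65 ± 1.45 CPM and from 1.32 ± 0.379 to 3.58 ± 0.804 CPM (SD, n = 3). PLA2G4A, the cytosolic phospholipase with the highest control level of these, went the other way, from 6.24 ± 1.22 to 4.35 ± 0.825 CPM (SD, n = 3, adjusted p = 0.0193 from edgeR). It is named after its values were seen. MGLL, a lipase of monoacylglycerols and the most abundant of the list per length, rose from 118 ± 4.81 to 203 ± 12.9 CPM (SD, n = 3). Without a fold cutoff, 6 of the 13 passed as higher and 5 as lower, where 36.2% and 36.9% of all tested genes did. Of 9 tested genes that put fatty acids back into phospholipid, 2 were DEGs, both lower. These were the lysophosphatidylcholine acyltransferases LPCAT2, from 139 ± 6.86 to 48.4 ± 2.28 CPM, and LPCAT1, from 31.8 ± 1.76 to 15.0 ± 1.03 CPM (SD, n = 3). MBOAT7, which places arachidonic acid into phosphatidylinositol, fell by 0.63 on the log2 scale.

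Beside SLCO2A1 and HPGD, 11 genes for other carriers and reductases of prostaglandins were tested, of which 4 were DEGs higher and 1 a DEG lower, where 12.5% and 11.4% of all tested genes were. The DEG lower was ABCC4, which encodes an exporter of PGE2, with 1304, 1127 and 1176 reads in controls and 393, 250 and 300 with ILL (-1.87 on the log2 scale, standard error 0.11). The aldo-keto reductases AKR1C1 and AKR1C2 rose by 2.71 and 2.21 on the log2 scale, and reads of these near-identical genes may be split between them. PTGR1, a prostaglandin reductase, and CBR3, a carbonyl reductase, were the other DEGs higher, by 1.33 and 1.01 on the log2 scale, and CBR3 went under the fold cutoff without control replicate 2 (0.84), control replicate 3 (0.95) or ILL replicate 1 (0.92). CBR1, which can reduce PGE2 to PGF2α, was at 59.1 ± 2.25 CPM in controls and 61.2 ± 2.15 CPM with ILL (SD, n = 3). Of other prostanoid synthases, 4 of 7 genes were tested, of which 1 was a DEG higher and 1 a DEG lower. AKR1C3, a PGF synthase with the same close relatives, rose from 20.2 ± 1.60 to 78.7 ± 5.49 CPM (SD, n = 3), and AKR1B1, the most abundant per length, rose by 0.26 on the log2 scale. The DEG lower was TBXAS1, the thromboxane synthase gene, from 1.13 ± 0.297 to 0.335 ± 0.107 CPM (SD, n = 3).

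A list of 8 genes held the remaining PGE2 receptors (PTGER1 and PTGER3), the receptors for other prostanoids, and PTGFRN. Of these, TBXA2R and PTGFRN passed the filter on low counts. The thromboxane receptor gene TBXA2R had 27, 3 and 28 reads in controls and 108, 82 and 69 with ILL (log2 fold change 2.23, standard error 0.46, adjusted p = 0.000135 from edgeR). PTGFRN, which encodes a partner of the PGF receptor and not a receptor, fell by 0.72 on the log2 scale. TBXA2R was the DEG of the list, where 12.5% of all tested genes were DEGs higher and 11.4% DEGs lower. PTGER1 and PTGIR were called higher as well without the filter and with DESeq2, which gave 3 DEGs higher.

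Downstream of EP2 and EP4, 21 of 26 genes of the cAMP pathway were tested, of which 2 were DEGs higher and 2 DEGs lower, with a median of 0.19 on the log2 scale, where 12.5% and 11.4% of all tested genes were such DEGs. The DEGs higher, PDE4A and ADCY4, numbered 0 without ILL replicate 2, with PDE4A at 0.95 and ADCY4 at 1.25 (adjusted p = 0.115 from edgeR), and 1 without control replicate 3, with PDE4A at 0.99. GNAS, the Gs protein that couples these receptors to adenylyl cyclase, was at 1306 ± 28.6 CPM in controls and 1451 ± 64.0 CPM with ILL (SD, n = 3). The cyclase ADCY3 fell by 1.37 on the log2 scale. Of the cAMP phosphodiesterases, PDE4B fell by 1.77 on the log2 scale while PDE4A rose by 1.03. The other DEG higher was the cyclase ADCY4, with few reads, at 0.241 ± 0.154 and 0.884 ± 0.541 CPM (SD, n = 3). Of 15 CREB coactivators and genes often raised by cAMP, all tested, 4 were DEGs higher and none was a DEG lower, beside the same shares. The transcription factor gene EGR1 rose by 1.93 ± 0.18 on the log2 scale and the phosphatase gene DUSP1 by 1.34 ± 0.07 (± standard error). The nuclear receptor genes NR4A1 and NR4A3 were the other DEGs, at 1.30 and 2.27. NR4A3 had few reads, at 0.236 ± 0.0593 and 1.16 ± 0.543 CPM (SD, n = 3). Without a fold cutoff, 9 of the 15 passed as higher and 1 as lower, where 36.2% and 36.9% of all tested genes did. The lower gene was SIK2, at -0.38 on the log2 scale, while FOS, FOSB, SIK1, CRTC1 and CRTC3 did not pass. SIK2 and these genes are named after their values were seen. AREG, an EGF receptor ligand, was at 65.8 ± 1.48 and 96.2 ± 2.50 CPM (SD, n = 3).

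A list of 25 genes held transcription factors chosen as possible regulators of PTGS2, whose binding to its promoter was not tested. All 25 passed the filter on low counts, and 7 were DEGs higher and 1 a DEG lower, with a median of 0.64 on the log2 scale. The shares over all tested genes were 12.5% and 11.4%. ATF3, a stress-induced factor of the CREB family, rose from 2.46 ± 0.217 to 26.4 ± 3.56 CPM, and RELB, an NF-κB subunit, from 13.7 ± 1.10 to 67.9 ± 3.12 CPM (SD, n = 3). FOSL1, an AP-1 subunit, was the DEG lower and fell by 1.16 on the log2 scale, and JUNB, the most abundant per length, rose by 0.85. Beside EGR1, which the list shares with the one before, the other DEGs higher were NFKB2, NFATC1, ATF4 and CEBPB. NFATC1, with few reads, lost its call when any library but control replicate 3 was left out (adjusted p from 0.0616 to 0.216 from edgeR). CEBPB, a C/EBP factor, was at 86.4 ± 3.29 and 244 ± 20.2 CPM, and ATF4, a factor of the amino acid and endoplasmic reticulum stress response, at 275 ± 7.43 and 919 ± 37.6 CPM (SD, n = 3). Since the PTGS2 transcript carries AU-rich elements, 18 genes for proteins that bind such elements were also listed, of which 17 were tested. Among these, 1 was a DEG higher and none a DEG lower (2 without ILL replicate 2, HNRNPD and KHSRP), where those shares were again 12.5% and 11.4%. Without a fold cutoff, 4 of the 17 passed the test as higher and 8 as lower, where 36.2% and 36.9% of all tested genes did. The DEG was ZFP36, which encodes the mRNA decay factor tristetraprolin, from 26.1 ± 1.56 to 88.5 ± 3.02 CPM. HNRNPA2B1, the most abundant per length, fell by 0.80 on the log2 scale.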

How the data were processed

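RNA-seq libraries of HCCC9810 cells, 3 with ILL and 3 with vehicle, were grouped by the sample labels. The authors deposited raw counts and FPKM values per gene symbol, 1 column per library. The submitters' processing notes name DESeq2 and GRCh38, while the aligner, counting program, annotation and strand setting are not given in the sources used here. Counts were filtered with filterByExpr (13066 of 19470 genes kept), normalized by TMM and tested with edgeR 4.0.16 (R 4.3.3, quasi-likelihood, Benjamini-Hochberg over all tested genes). Cutoffs follow the study's methods. The study's tool, DESeq2, was run here in version 1.42.0 as an alternative, as was limma 3.58.1 on log2 of FPKM plus a pseudocount. Intervals use the fitted standard error at 95%. The fit was tested on simulated counts of 12759 genes. There, 100% of 50 genes raised by a log2 fold change of 2 passed, as did 13 of 12559 unchanged genes. Raised and lowered genes were drawn only from control levels above those of PTGS2, PTGER4, SLCO2A1 and HPGD. The share passing at the low control levels of these members was therefore not tested. Each pair of libraries in a group was further apart than counting error gives (chi-square per degree of freedom from 5.09 to 11.5). Same-numbered libraries did not deviate together (correlations -0.02 to 0.01). The biological coefficient of variation was 0.0717, and total counts between 34282764 and 37758569 leave genes with few reads set by counting error.

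The members and the pathway lists were chosen with earlier results of these data known. Named genes were the members and, per list, at most 2 DEGs at each end of the fold changes whose groups did not overlap and whose mean was 1 CPM or more, and the gene with the highest mean FPKM. Also named were the genes most like PTGS2 and HPGD. Promoter windows come from RefSeq (GRCh38.p14), which held 12 windows for 8 of the 9 members, and gene positions from GENCODE release 29 on GRCh38. The values of 1 marker gene are not reported here.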

Additional observations from a re-analysis of the deposited data

How the results depend on the processing

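With 3 libraries per group, members with few reads (HPGD, PTGER4 and SLCO2A1) keep wide intervals. PTGER2 was tested without the filter on low counts, at -0.38 (adjusted p = 0.783 from edgeR), and with DESeq2, at -0.37 (adjusted p = 0.833). PTGS2, PTGES, PTGES2, PTGES3 and SLCO2A1 kept their direction and passed under every alternative that tested them, and PTGS1 passed under none. The PTGS2 log2 fold change ran from 2.18, on log2 of FPKM plus 1, to 3.31. PTGER4 lost its call without control replicate 2, at 0.48 (adjusted p = 0.0606 from edgeR, where the alternatives spanned 0.00497 to 0.0606). HPGD spanned -0.65 to 0.06 when single libraries were left out, and turned positive without control replicate 2 (0.058) and without control replicate 3 (0.023).

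DEGs among members numbered 2 under every count-based alternative with the fold cutoff. They numbered 1 on log2 of FPKM plus 1, 1 on log2 of FPKM plus 0.1 and 1 on log2 of FPKM plus 1 without a filter, and 6 without the fold cutoff. SLCO2A1 has a mean under 1 FPKM and was left out by the FPKM filter, and on log2 of FPKM plus 1 without a filter its value was -0.37, since the pseudocount shrinks changes of low genes. Over all genes, 3120 DEGs (1635 higher, 1485 lower) became 1591 (668 and 923) on log2 of FPKM plus 1, 1609 (680 and 929) on that scale without a filter and 9547 (4726 and 4821) without the fold cutoff. On log2 of FPKM plus 0.1, 909 were higher. The cause of the lower counts on FPKM was not tested. Counts ran from 3083 to 3165 over the fits without 1 library. Of 264 counts of DEGs in the pathway lists under the alternatives, 245 lay within 1.5 times the reported count. Of the other 19, 11 were in the lists of other prostanoid receptors and of the cAMP pathway. Beyond the changes described with those lists and for PTGER1 below, PDE4A fell under the fold cutoff (0.96) with normalization by library size alone. A filter of at least 10 counts in every library left out TBXA2R and ADCY4. In other lists the same filter left out TBXAS1, ALOX12B, ALOX15B, NR4A3 and NFATC1, which were DEGs in the main fit.

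The replicate numbers as a block gave 3111 DEGs over all genes and 2 among the members. The block changed no call of a member, and the numbers do not pair the libraries, since same-numbered libraries did not deviate together.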

Other observations

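The other oxidation branches of arachidonic acid also held changed genes. Of 18 genes of the lipoxygenase and leukotriene list, 14 were tested, of which 6 were DEGs higher with ILL and none was a DEG lower (1 without ILL replicate 1, LTB4R2), where 12.5% and 11.4% of all tested genes were, and the median log2 fold change was 0.44. CYP4F3, an omega-hydroxylase that inactivates leukotriene B4, rose from 2.36 ± 0.508 to 31.3 ± 1.87 CPM (SD, n = 3), with adjusted p = 3.2e-18 from edgeR. Its relative CYP4F11 rose from 3.76 ± 0.399 to 33.5 ± 2.13 CPM (SD, n = 3), and reads can be shared between these related genes. LTA4H, the enzyme that makes leukotriene B4 and the most abundant of the list per length, had a log2 fold change of 0.42 (standard error 0.06). Of the 6 DEGs higher, ALOX12B and ALOX15B had few reads and are named after their values were seen. They rose from 0.612 ± 0.505 to 4.44 ± 0.669 CPM and from 0.0189 ± 0.0164 to 0.641 ± 0.262 CPM (SD, n = 3). With at least 10 counts required in every library, both were left out and 4 DEGs higher remained.

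Some rows related to the members by name or receptor class were named after their values were seen. PTGES3L, which resembles PTGES3, had 7, 4 and 2 reads in controls and 99, 93 and 55 with ILL, opposite in direction to PTGES3 and far below its lowest library of 5340 reads. PTGER1, which encodes the EP1 receptor, had 8, 1 and 2 reads in controls and 24, 38 and 7 with ILL, and PTGIR, the prostacyclin receptor gene, had 0, 0 and 0 reads in controls and 2, 7 and 11 with ILL, both under the filter on low counts. Some alternatives called both higher. For PTGER1 the adjusted p was 0.00275 without the filter and 0.00324 with DESeq2, and it lay between 0.000743 and 0.0198 in the 4 fits without 1 library that called it. For PTGIR the adjusted p was 0.00448 without the filter and 0.00646 with DESeq2, and no fold is given since its controls had no reads. PTGDR and PTGDR2, the receptors for PGD2, had no reads in any library.

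Across the 6 libraries, the genes most like PTGS2 on log2 of CPM plus 1 were CCNDBP1, TDRD7 and DNAJC10, with Pearson correlations of 0.9997, 0.9997 and 0.9996 among 12048 genes compared. Since the libraries fall into 2 treatment groups, 2729 genes exceeded a correlation of 0.95 with PTGS2. For HPGD the most alike were NPIPB13, SLC25A25 and ZNF395, with correlations of 0.970, 0.968 and 0.962, and 3 genes exceeded 0.95.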
